A study of Mus musculus with 6 samples.

Results

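Potassium channel genes were taken as the RefSeq protein-coding genes of mouse chromosomes 1 to 19 whose symbol starts with Kcn, which gave 92 of 20661 genes. Peak lists from 6 CUT&RUN libraries of gastrocnemius muscle were read at these genes, 1 library per list. CUT&RUN cuts and sequences the DNA that lies beside an antibody bound to chromatin. All libraries came from 4-week-old male C57BL/6 mice that carried Phf2 flox/flox. The knockout mice, CKO, were Phf2 flox/flox;Acta1 Cre+, and the control mice, Ctrl, were Phf2 flox/flox;Acta1 Cre-. In CKO, H3K9me2 and 1 input were profiled. In Ctrl, H3K9me2, H3K4me3 and 2 inputs were profiled, and the H3K4me3 library has a wild-type title beside its Ctrl genotype label. Acta1 Cre acts in skeletal muscle fibres, so the nerves, vessels and other cells of the tissue keep Phf2, and the lists cannot separate these cells from fibres: a mark in few cells and a weak mark in many cannot be told apart. The labels do not say whether libraries came from separate mice, and the loss of PHF2 itself was not checked here.

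Potassium channels let potassium leave or enter cells and so set the resting voltage and end electrical spikes. In muscle fibres the inward rectifiers hold the resting potential, ATP-sensitive channels link it to metabolism, and voltage-gated and calcium-activated channels shape repolarisation, whereas neurons use a wider set of voltage-gated, sodium-activated and G-protein-gated channels. H3K4me3 marks the starts of active genes and H3K9me2 is found in repressed chromatin. PHF2 has been described as a demethylase of H3K9me2. The genes were sorted by where their channels are best known: 9 in muscle fibres, 28 mainly in neurons, 10 in heart or smooth muscle, 12 in glia, epithelia, blood, sperm or photoreceptors, and 33 in none of these lists.

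The lists differed in length and depth. On chromosomes 1 to 19 there were 12508 H3K9me2 peaks in CKO and 3595 in Ctrl, 16066 H3K4me3 peaks in Ctrl, and 10683 input peaks in CKO against 2999 and 1277 in the Ctrl inputs. The lowest local background solved from the statistics of any peak in the list was 0.544 for H3K9me2 in CKO and 0.391 in Ctrl. A median of 9 and 6 fragments stood at the summit of an H3K9me2 peak in CKO and Ctrl, and of 53 at an H3K4me3 peak. Some H3K9me2 peaks lie where inputs have peaks too, so H3K9me2 is given below for whole lists and for the 9596 CKO and 2636 Ctrl peaks that overlap no peak of the 3 inputs, called input-free. With 1 library of a mark per genotype no test between CKO and Ctrl was possible, and the part of list length and depth in each difference cannot be told apart from genotype. The H3K4me3 list covered 4 of 10 marker genes of muscle fibres, Actn3, Des, Pvalb and Tnnt3, and held no peak at Acta1, Ckm, Myh1, Myh2, Myh4 or Ttn, which define the tissue. It also covered 3 of 7 neuronal markers, 4 of 6 Schwann cell markers and 2 of 6 markers of smooth muscle and endothelium.

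H3K4me3 was present at most potassium channel genes, and at the channels of muscle fibres throughout. A peak in the gene body or within 2 kb was found at 64 of the 92 genes (69.6%, exact 95% binomial interval 59.1 to 78.7), beside 65.5% of all protein-coding genes. The 9 muscle-fibre genes had one in 9 cases (100%, 66.4 to 100), and the 28 neuronal genes in 22 (78.6%, 59.0 to 91.7), a difference of 21.4 percentage points with overlapping intervals. Heart and smooth muscle channels had a peak at 7 of 10 genes, and the channels of glia, epithelia, blood, sperm and photoreceptors at 3 of 12, which were Kcna3, Kcnj10 and Kcnk5. By gene length, it stood at 19 of 34 genes under 20 kb (55.9%) beside 53.4% of all such genes, at 26 of 35 between 20 and 100 kb (74.3%) beside 77.7%, and at 19 of 23 over 100 kb (82.6%) beside 85.1%. By channel family, 33 of 39 voltage-gated pore-forming subunits had a peak, 10 of 15 inward rectifiers, 8 of 14 channels with 2 pore domains, 6 of 8 calcium- or sodium-activated channels and 7 of 16 auxiliary subunits. When H3K4me3 peaks that overlap an input peak were left out, 5 of 9 muscle-fibre genes (55.6%) and 14 of 28 neuronal genes (50%) kept one. The muscle-fibre genes without one were then Kcna5, Kcnc4, Kcnj12 and Kcnma1.

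The promoter sequence of 7 channel genes is shown because the place of H3K4me3 differed among them. Each is the RefSeq window of GRCm38.p6, 250 bases before to 50 after the listed gene start, on the gene's strand, in lower case with every CG pair in capitals. In the first 3, which belong to the inward rectifier Kcnj2 (chr11:111065914-111066213, plus strand), the voltage-gated Kcnc4 (chr3:107458849-107459148, minus strand) and the calcium-activated Kcnma1 (chr14:24004156-24004455, minus strand), an H3K4me3 peak covered the window.
Kcnj2: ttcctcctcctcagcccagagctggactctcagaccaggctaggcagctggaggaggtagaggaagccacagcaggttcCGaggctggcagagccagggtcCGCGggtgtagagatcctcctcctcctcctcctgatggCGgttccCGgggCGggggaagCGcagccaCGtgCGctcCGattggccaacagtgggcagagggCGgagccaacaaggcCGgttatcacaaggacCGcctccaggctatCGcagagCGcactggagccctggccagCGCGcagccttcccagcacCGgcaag
Kcnc4: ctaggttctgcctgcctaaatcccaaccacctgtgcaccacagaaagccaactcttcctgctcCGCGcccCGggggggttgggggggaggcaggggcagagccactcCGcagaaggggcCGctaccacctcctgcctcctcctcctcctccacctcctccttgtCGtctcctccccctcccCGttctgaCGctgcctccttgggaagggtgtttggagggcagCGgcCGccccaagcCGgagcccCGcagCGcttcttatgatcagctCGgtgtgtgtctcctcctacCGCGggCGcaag
Kcnma1: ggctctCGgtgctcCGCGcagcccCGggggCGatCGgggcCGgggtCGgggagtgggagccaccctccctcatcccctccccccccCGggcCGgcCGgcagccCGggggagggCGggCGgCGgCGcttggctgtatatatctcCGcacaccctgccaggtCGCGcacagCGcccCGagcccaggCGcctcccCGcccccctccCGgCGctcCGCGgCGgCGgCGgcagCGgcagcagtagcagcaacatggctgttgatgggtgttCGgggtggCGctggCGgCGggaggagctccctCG
These held 18, 17 and 36 CG pairs. In the next 3, of the voltage-gated Kcna7 (chr7:45405710-45406009, plus strand) and Kcna5 (chr6:126535506-126535805, minus strand) and the calcium-activated Kcnn3 (chr3:89519914-89520213, plus strand), the nearest H3K4me3 summit stood downstream, by 855, 1261 and 744 bp, and the window was not covered.
Kcna7: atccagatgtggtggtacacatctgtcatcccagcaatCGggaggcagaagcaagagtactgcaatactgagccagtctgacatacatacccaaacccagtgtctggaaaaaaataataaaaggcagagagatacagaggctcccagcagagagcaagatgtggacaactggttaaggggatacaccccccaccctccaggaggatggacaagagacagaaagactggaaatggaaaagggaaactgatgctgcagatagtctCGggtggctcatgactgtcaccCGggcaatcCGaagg
Kcna5: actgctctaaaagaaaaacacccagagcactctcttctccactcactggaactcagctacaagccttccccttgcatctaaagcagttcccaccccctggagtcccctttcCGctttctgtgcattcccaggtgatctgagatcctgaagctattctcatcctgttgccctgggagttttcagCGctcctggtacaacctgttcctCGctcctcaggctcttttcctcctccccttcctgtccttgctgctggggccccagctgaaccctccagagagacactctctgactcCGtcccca
Kcnn3: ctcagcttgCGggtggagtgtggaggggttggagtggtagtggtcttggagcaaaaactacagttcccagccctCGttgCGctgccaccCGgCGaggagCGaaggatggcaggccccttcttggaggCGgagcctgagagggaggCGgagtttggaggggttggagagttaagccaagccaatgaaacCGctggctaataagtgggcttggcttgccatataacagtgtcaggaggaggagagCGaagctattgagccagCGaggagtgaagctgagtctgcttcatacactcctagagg
These held 4, 4 and 11 CG pairs. The last window, of Kcna10 (chr3:107182893-107183192, plus strand), a voltage-gated channel known outside muscle and neurons, held 0 CG pairs, and its gene had no peak in any of the 6 lists.
Kcna10: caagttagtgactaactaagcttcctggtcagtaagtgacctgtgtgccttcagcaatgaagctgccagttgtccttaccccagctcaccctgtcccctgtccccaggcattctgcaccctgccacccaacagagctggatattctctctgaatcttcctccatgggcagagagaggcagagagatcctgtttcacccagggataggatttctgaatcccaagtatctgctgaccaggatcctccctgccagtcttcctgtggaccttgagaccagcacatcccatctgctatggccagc

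The muscle-fibre channels had H3K4me3 peaks of middle or low height. Among the inward rectifiers, Kcnj2, which holds the resting potential, had a peak of fold 9.22 over local background with 49 fragments at its summit, 17 bp downstream of the start. Kcnj12, a second rectifier of the same kind, had a peak of fold 8.97 with 63 fragments at the lower-coordinate end of its gene, at -42.9 kb from the start of its only listed promoter window, and that peak overlapped a CKO input peak. Kcnj11, the pore of the ATP-sensitive channel, had 2 peaks of fold 6.25 and 4.82 with 39 and 29 fragments. All 3 rectifiers thus carried H3K4me3, and none of them had an H3K9me2 peak in either genotype.

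Among the voltage-gated channels of fibres, Kcna5 had a peak of fold 7.73 with 23 fragments, and a CKO input peak of fold 5.62 lay under it. Kcna7 had a peak of fold 7.49 with 47 fragments inside the gene and a higher one of fold 11.3 with 63 fragments, whose summit lies 7701 bp downstream of the start beside the neighbouring gene Ntf5. Kcnc4 had the widest H3K4me3 peak of the 92 genes, 2048 bp, with fold 5.84 and 92 fragments, and a peak of Ctrl input 2 of fold 5.73 overlapped it. Its partner in muscle, the auxiliary subunit Kcne3, had a small peak of 9 fragments and fold 6.75, which covered the second of its 2 listed windows. Of the calcium-activated channels, Kcnma1, which carries the large-conductance current, had fold 7.97 with 74 fragments at its start, and Kcnn3, a small-conductance channel of young and denervated fibres, had fold 10.8 with 46 fragments. Of the 9 genes, Kcnma1 alone had H3K9me2 peaks.

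**Figure D1:**
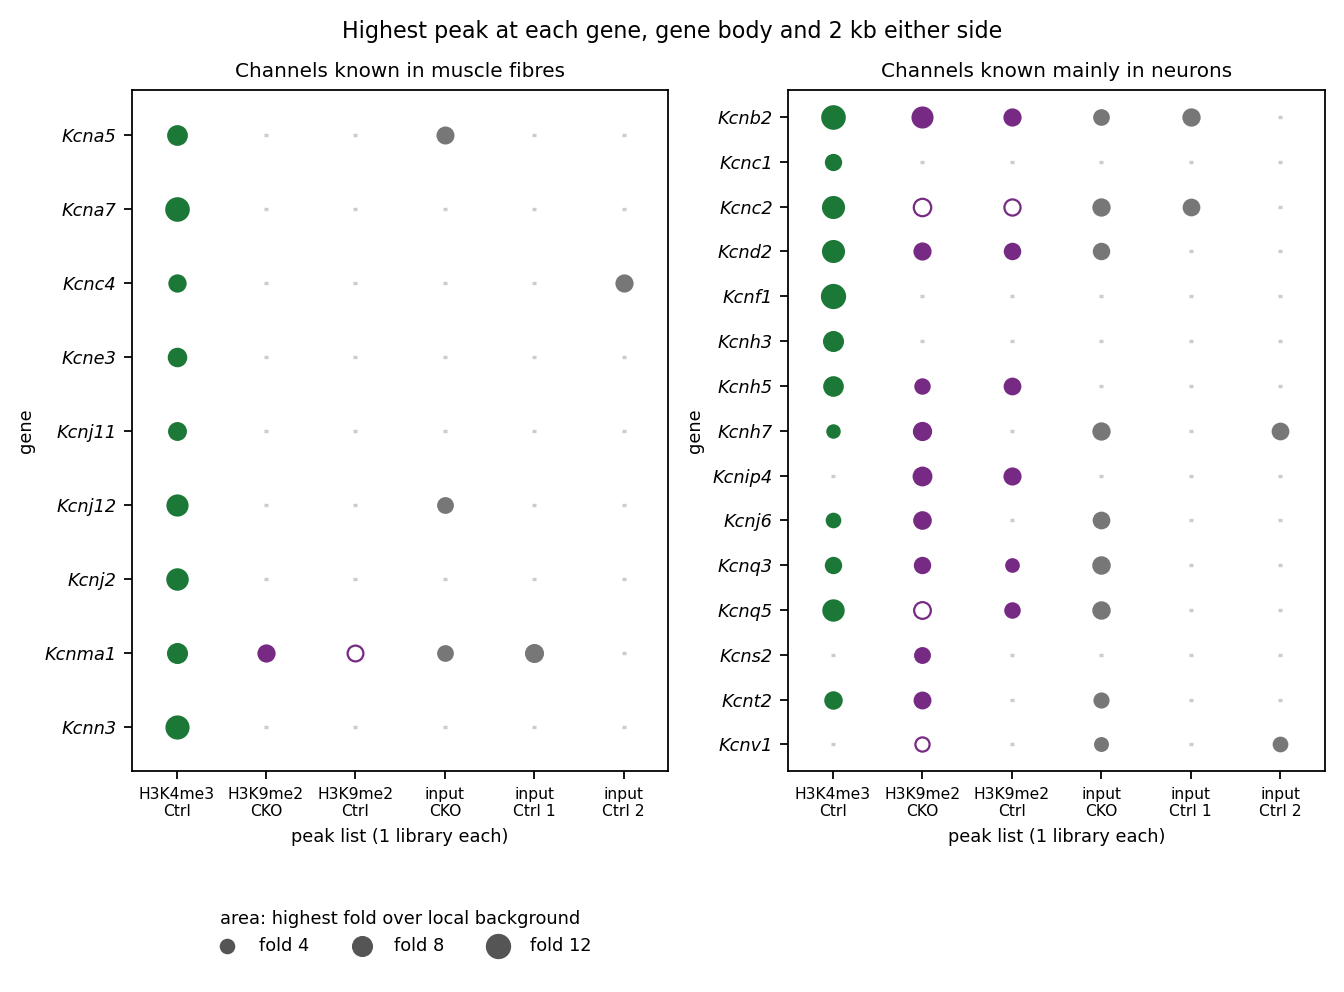
Highest peak in the gene body or within 2 kb of the 9 muscle-fibre channel genes (left) and of 15 of the 28 neuronal ones (right), which are those with an H3K9me2 peak and others named in the text, in 6 peak lists of 1 library each; dot area is proportional to the fold over local background, a dash means no peak, and an open H3K9me2 dot means that every H3K9me2 peak of that gene overlaps an input peak. H3K4me3 (green) stands at 9 of 9 muscle-fibre genes and 12 of the 15 neuronal genes drawn. H3K9me2 (purple) stands at 1 of 9 muscle-fibre genes in CKO and 1 in Ctrl. Neuronal genes were drawn partly for this mark, so the panel overstates its share among them. Of all 28 neuronal genes, 12 (42.9%) have it in CKO and 7 (25%) in Ctrl, beside 16.0% and 5.38% of all protein-coding genes.

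The height of H3K4me3 at potassium channel genes was below that of most genes with the mark. The highest fold per gene had a median of 8.17 over the 64 channel genes and 11.4 over all protein-coding genes with a peak, and it was 7.97 for muscle-fibre and 7.20 for neuronal channels. A peak that reached the list's median fold was found at 17 of the 92 channel genes (18.5%), beside 41.5% of all protein-coding genes. Of these 17, 2 were muscle-fibre channels, Kcnn3 and, by its peak beside Ntf5, Kcna7, and 2 were neuronal, Kcnb2 and Kcnf1. Many of the taller peaks belonged to channels of other lists. Kcnj14, an inward rectifier, had fold 15.8 and Kcnh6, a voltage-gated channel, fold 13.7, but both peaks lie outside the gene, within 2 kb of it. Within a gene, tall peaks stood at Kcnk6, a background channel, with fold 13.5 and 79 fragments, and at Kcng2, a silent voltage-gated subunit, with fold 12.9 and 63 fragments. Kcnk12 had fold 12.7, the cardiac Kcnh2 and Kcna6 had 12.4 each, Kcns3 12.3 and the neuronal silent subunit Kcnf1 11.9. The tall Kcnk12 peak stood 51.8 kb downstream of the gene start, and the peak at that start had fold 3.93 and 5 fragments. The lymphocyte channel Kcna3 and the epithelial Kcnk5 had 11.4 each, and Kcnk2 and Kcnb2 had 11.3 each. By width, Kcnc4 was followed by channels of several lists. Kcnc1, a fast-spiking neuronal channel, had 1987 bp at fold 5.10, the small-conductance Kcnn2 1681 bp at fold 7.05 and Kcnk13 1518 bp at fold 9.81. Kcnma1, Kcng3, Kcnh3, Kcnk5, Kcna5 and Kcns3 followed with 1511, 1428, 1403, 1304, 1265 and 1250 bp.

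At the promoter windows themselves, potassium channel genes were covered by H3K4me3 less often than protein-coding genes in general. A window was listed for 68 of the 92 genes and for 16456 protein-coding genes. A window counted as covered where at least 1 bp of it lay under a peak, so some were covered only in part. H3K4me3 covered 24 of the 68 (35.3%, 24.1 to 47.8), beside 55.2% of all genes with a window, and 3 of 8 muscle-fibre and 8 of 17 neuronal windows. A peak within 2 kb of the start was found at 37 of the 68 (54.4%), beside 60.7% of all. Among these 37 the peak covered the window at 24 (64.9%, 47.5 to 79.8), beside 91.0% of all genes with such a peak. At the other 13 genes the nearest summit was downstream of the start in 11, by 380 to 2059 bp with a median of 785, and upstream in Kcnh4 and Kcnn1. The downstream share was 84.6% in channel genes and 78.6% of the 894 such genes in all, whose median was 691 bp. Of the 7 muscle-fibre genes with a peak near the start, 4 were of this kind, Kcna5, Kcna7, Kcne3 and Kcnn3. Counting every listed window of a gene, 31 of 68 channel genes (45.6%) and 57.3% of all had one covered.

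CG content moved with the mark in channel genes as in others. The CpG observed over expected ratio, which is near 1 where CG pairs are not depleted, had a median of 0.438 in the 68 channel windows and 0.597 in all windows. It was 0.730 in the 24 covered channel windows and 0.323 in the 44 others, against 0.806 and 0.206 over all genes. Below a ratio of 0.4, 1 of 27 channel windows was covered beside 6.69% of all, between 0.4 and 0.75 it was 46.4% (27.5 to 66.1) beside 71.3%, and from 0.75 up 76.9% (46.2 to 95.0) beside 95.2%. The 1 covered window of the lowest class was that of Kcnc2, where the peak reached only the downstream edge of the window. The lower coverage of channel windows thus stood within each of the 3 classes, and the interval held the value of all genes in the lowest class alone. The letters TATAAA, searched on both strands, were in 4.41% of channel windows and 13.5% of all, and CAGCTG, an E-box that reads the same on both strands and was added after the values were seen, in 23.5% and 15.2%. Among windows of muscle-fibre channels, 2 of 8 held CAGCTG and 0 held TATAAA.

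**Figure D2:**
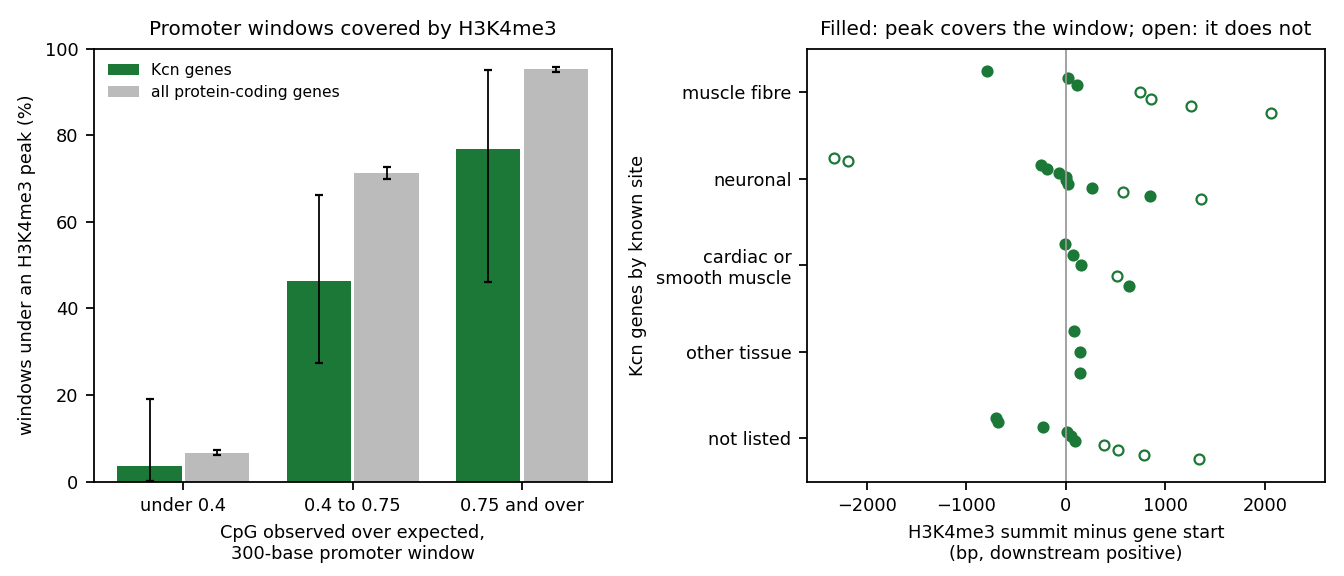
Left, percent of 300-base promoter windows under an H3K4me3 peak in Ctrl by CpG observed over expected ratio, for Kcn genes and all protein-coding genes, with exact 95% binomial intervals. A window is under a peak, or covered, where at least 1 bp of it is overlapped. Right, H3K4me3 summit nearest the gene start for the 37 Kcn genes with a peak within 2 kb of it, in bp, filled where the peak covers the window (24 genes) and open where it does not (13 genes); 11 of the open points lie downstream of the start.

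In CKO, H3K9me2 peaks stood at a larger share of potassium channel genes than of genes in general. In whole lists, CKO had a peak at 23 of 92 genes (25%, 16.6 to 35.1), beside 16.0% of all protein-coding genes, and Ctrl at 9 (9.78%, 4.57 to 17.8), beside 5.38%. Input-free peaks stood at 20 genes in CKO (21.7%, 13.8 to 31.6), beside 9.82%, and at 7 in Ctrl (7.61%, 3.11 to 15.1), beside 3.25%. Both Ctrl intervals include the share of all genes. In CKO, 1 of 9 muscle-fibre genes (11.1%, 0.281 to 48.2) and 9 of 28 neuronal genes (32.1%, 15.9 to 52.4) had an input-free peak, a difference of -21.0 percentage points with overlapping intervals. In Ctrl the counts were 0 of 9 and 6 of 28. Among the other lists, CKO had such peaks at 2 of 10 heart and smooth muscle channels, Kcnd3 and Kcnj3, at 2 of 12 channels of other tissues, Kcnj1 and Kcnv2, and at 6 of 33 unlisted genes. At the inward rectifiers CKO had 3 of 15 and Ctrl 0 of 15.

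Gene length separated the channel genes with H3K9me2 from those without. The 20 genes with an input-free CKO peak had a median length of 311 kb, against 24.1 kb for the 72 without one, and the 7 with an input-free Ctrl peak were between 280 and 1136 kb long. Potassium channel genes are long, with a median of 34.5 kb against 17.5 kb for all protein-coding genes, and the neuronal ones (50.6 kb) are longer than the muscle-fibre ones (10.7 kb). Above 100 kb, 17 of 23 channel genes (73.9%, 51.6 to 89.8) had an input-free CKO peak, beside 37.6% of all genes of that class. Between 20 and 100 kb it was 1 of 35 (2.86%) beside 9.69%, and under 20 kb 2 of 34 (5.88%) beside 4.10%. In Ctrl, 7 of 23 long channel genes (30.4%, 13.2 to 52.9) had one, beside 15.8%, and none of the 35 of middle length and the 34 short ones, beside 2.64% and 1.03% of all genes. The long channel genes are also longer than other long genes, with a median of 321 kb against 172 kb. Per Mb of gene and flank, the long channel genes held 4.33 input-free CKO peaks (exact 95% Poisson interval 3.06 to 5.94), and all long genes 3.27. In Ctrl the density was 0.798 (0.321 to 1.64) in long channel genes and 0.842 in all long genes, so per Mb the intervals of channel genes held the value of all long genes in both genotypes. Muscle-fibre and neuronal channels had 3.98 (1.08 to 10.2) and 4.18 (2.65 to 6.26) input-free CKO peaks per Mb. The muscle-fibre value rests on 4 peaks, all in 1 gene, Kcnma1, which is 713 kb long. With genes over 100 kb left out, the difference between muscle-fibre and neuronal channels was -5.88 percentage points, which rests on 1 gene, Kcns2. Input-free CKO peaks then stood at 1 of 9 neuronal genes under 20 kb and 0 of 8 between 20 and 100 kb. For muscle-fibre genes the counts were 0 of 5 and 0 of 2. CKO input had 2.73 peaks per Mb (1.75 to 4.07) in long channel genes and 3.97 in all long genes.

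**Figure D3:**
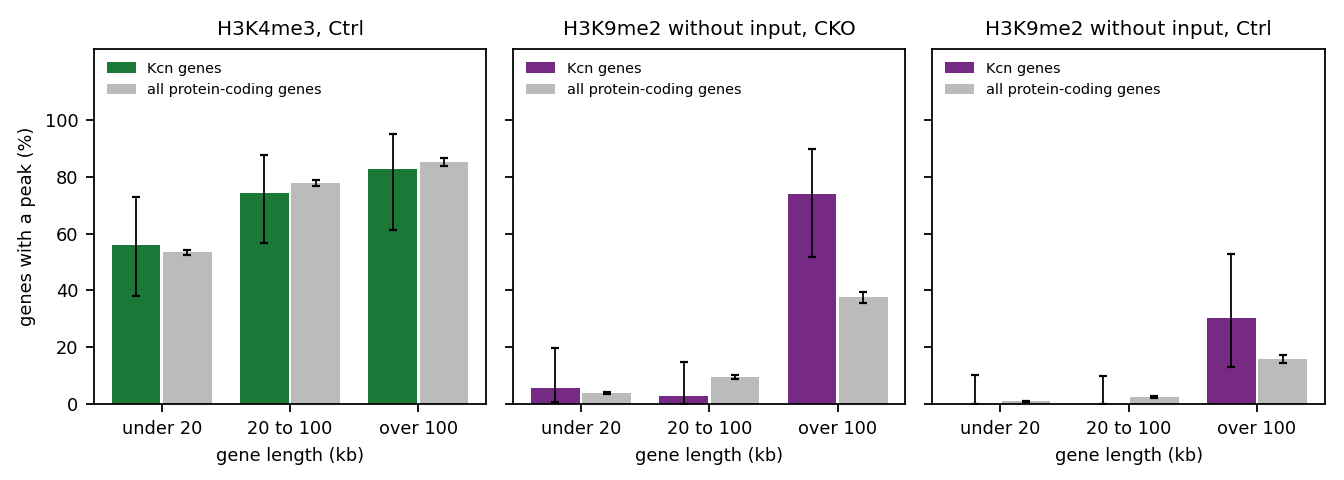
Percent of genes with a peak in the gene body or within 2 kb, by gene length, for Kcn genes (coloured) and all protein-coding genes (grey), with exact 95% binomial intervals; left to right, H3K4me3 in Ctrl, input-free H3K9me2 in CKO and input-free H3K9me2 in Ctrl. Above 100 kb the CKO bar of Kcn genes stands at 73.9% and that of all genes at 37.6%, and the H3K4me3 bars stand at 82.6% and 85.1%.

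The 41 input-free CKO peaks at channel genes were short and low. Their width had a median of 377 bp, their fold ran from 3.76 to 10.3 with a median of 5.32, and 5 to 19 fragments stood at the summit. Of the 41, 37 lay in the gene body, 3 at a gene end and 1 just outside a gene. The highest was at Kcnj3 (chr2:55492092-55492549), a subunit of the G-protein-gated channel of heart and brain, with fold 10.3 and 19 fragments (Poisson interval 11.4 to 29.7). Next came Kcnb2 with fold 8.89 and 16 fragments, Kcnmb2, an auxiliary subunit of the large-conductance channel, with 7.28 and 12 fragments, and Kcnip4, a calcium-binding partner of A-type channels, with 6.98 and 14 fragments. Kcnh7, a neuronal relative of the cardiac Kcnh2, had 6.53, Kcnh8 6.08, the G-protein-gated Kcnj6 6.05, Kcnn2 5.83, Kcnk10 5.80, Kcnma1 5.75, Kcnab1 5.70, the photoreceptor subunit Kcnv2 5.32, Kcnd2 5.22, Kcnq3 5.18 and the sodium-activated Kcnt2 5.17. The 7 input-free Ctrl peaks ran from fold 3.49 to 5.75 with 5 to 7 fragments, and each lay in a gene body.

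Peak numbers were highest in a few long genes, 3 neuronal, 1 of muscle fibres and 1 unlisted. Kcnb2, a voltage-gated channel of neuronal cell bodies that spans 437 kb, had 6 input-free peaks in CKO and 1 in Ctrl. Kcnq3, a subunit of the neuronal M-current (300 kb), had 5 and 1, and Kcnip4 (1136 kb) had 4 and 1. Kcnma1 (713 kb) had 4 in CKO and 0 in Ctrl, and Kcnh8 (376 kb) had 3 and 0. Kcnmb2 had 2 in CKO and 1 in Ctrl, Kcnd2, the A-type channel of dendrites, had 1 in each, and Kcnh5 had 1 in each. Kcnq5, another M-current subunit, had its only input-free peak in Ctrl, of fold 4.60 with 6 fragments, while its CKO peak overlapped the CKO input. These counts put 6 genes in both input-free lists, 14 in CKO alone and 1 in Ctrl alone. The 6 were 30% of the CKO genes (11.9 to 54.3) and 85.7% of the Ctrl genes (42.1 to 99.6), beside 18.6% and 56.1% over all protein-coding genes and 31.7% and 75.4% over those above 100 kb. The 6 genes common to CKO and Ctrl were Kcnb2, Kcnd2, Kcnh5, Kcnip4, Kcnmb2 and Kcnq3. Long genes without an input-free CKO peak were Kcnc2, Kcnip1, Kcnk2, Kcnn3, Kcnq1 and Kcnq5.

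Sites were compared as well as genes. None of the 41 input-free CKO peaks at channel genes overlapped an H3K9me2 peak of Ctrl, which allows a share of up to 7.32%, beside 6.41% for input-free CKO peaks at all protein-coding genes. Of the 7 in Ctrl, 0 overlapped an H3K9me2 peak of CKO, which allows up to 42.9%, beside 25.6% at all genes. Both limits lie above the share at all genes, so no difference from other genes was detectable at this depth. In the 6 common genes the nearest input-free CKO and Ctrl peaks were 21.7 kb apart in Kcnh5, 24.1 kb in Kcnip4, 31.7 kb in Kcnmb2, 35.0 kb in Kcnb2, 66.5 kb in Kcnq3 and 367 kb in Kcnd2. In whole lists, H3K9me2 peaks of CKO and Ctrl did overlap at 3 sites, and each of these also had a CKO input peak. In Kcnc2, a fast-spiking neuronal channel, the site 156 kb from the lower end had fold 6.66 in CKO and 5.87 in Ctrl for H3K9me2, and 4.38 in CKO input and 5.41 in Ctrl input 1. In Kcnd2 it had 5.71 in CKO and 5.22 in Ctrl, with 4.69 in CKO input. In Kcnma1 it had 5.75 in CKO and 5.61 in Ctrl, with 4.74 in CKO input.

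**Figure D4:**
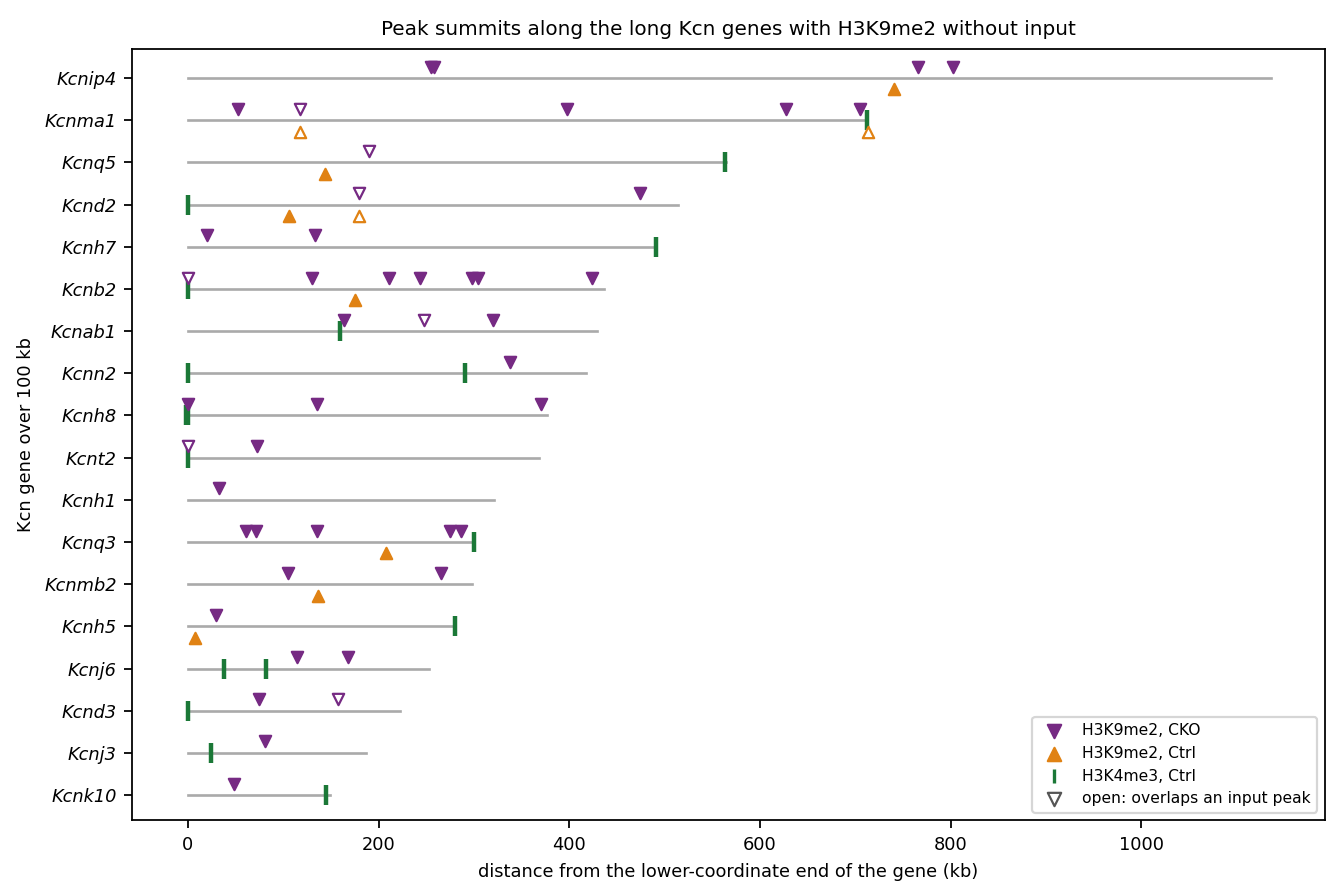
Summits of H3K9me2 peaks in CKO (purple, above each line) and Ctrl (orange, below it) and of H3K4me3 peaks in Ctrl (green ticks) along the 18 Kcn genes over 100 kb with an input-free H3K9me2 peak, as distance in kb from the lower-coordinate end of each gene (grey line). Open triangles overlap an input peak; filled CKO and Ctrl triangles never share a site, and most lie away from the green ticks.

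H3K9me2 and H3K4me3 peaks overlapped at a few sites in channel genes. Of the 41 input-free CKO peaks, 1 overlapped an H3K4me3 peak (2.44%, 0.0617 to 12.9), at the start of Kcnh8, beside 19.3% of such peaks at all protein-coding genes. In genes over 100 kb it was 1 of 38 (2.63%, 0.0666 to 13.8) beside 6.98%, a value within the interval. In whole lists, 4 of 51 CKO peaks (7.84%) and 1 of 11 Ctrl peaks (9.09%) at channel genes overlapped H3K4me3, against 36.2% and 34.8% at all genes. Of these peaks, 47 in CKO and all 11 in Ctrl lay in genes over 100 kb, where the shares were 8.51% (2.37 to 20.4) in CKO and 9.09% (0.23 to 41.3) in Ctrl at channel genes, and 15.7% and 13.4% at all long genes, within both intervals. Besides Kcnh8, the CKO peaks in question stood at Kcnc2 and at the starts of Kcnb2 and Kcnt2, and each of these 3 overlapped a CKO input peak. The Ctrl peak stood at the start of Kcnma1, over a peak of Ctrl input 1. As genes, 14 of the 20 with an input-free CKO peak also had H3K4me3 somewhere (70%, beside 68% of all such protein-coding genes), and 6 had none, namely Kcnh1, Kcnip4, Kcnj1, Kcnmb2, Kcns2 and Kcnv2.

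Input peaks were common at channel genes. CKO input had a peak at 40 of 92 genes (43.5%, 33.2 to 54.2), beside 34.8% of all protein-coding genes, Ctrl input 1 at 10 (10.9%) beside 10.1%, and Ctrl input 2 at 4 (4.35%) beside 4.56%. Thus 44 genes had a peak in at least 1 input (47.8%), beside 39.1% of all, and none had one in both Ctrl inputs, beside 1.35% of all. By gene length, CKO input stood at 23.5% of channel genes under 20 kb, beside 20.5% of all such genes. Between 20 and 100 kb it was 48.6% beside 45.7%, and above 100 kb 65.2% beside 68.5%. Muscle-fibre and neuronal channels had a CKO input peak at 3 of 9 and 17 of 28 genes, and their median lengths were 10.7 and 50.6 kb. Among the genes with the highest CKO input fold were Kcnab1 (6.86), Kcnd3 (6.37), Kcnq3 (5.98), Kcnq5 (5.92), Kcnc2 (5.84), Kcnh7 (5.84), Kcnk6 (5.65) and Kcna5 (5.62). In Ctrl input 1 the genes were Kcnh1 (fold 7.30), Kcnk2 (6.69), Kcnma1 (6.38), Kcnb2 (5.84), Kcnc2 (5.41), Kcnk1 (5.11), Kcnk13 (4.75), Kcnq1 (4.41), Kcnk12 (4.36) and Kcnip3 (3.79). In Ctrl input 2 they were Kcnc4 (5.73), Kcnh7 (5.42), Kcnv1 (4.10) and Kcnn2 (4.06). Of the CKO input peaks at channel genes, 52.0% overlapped an H3K4me3 peak, beside 67.5% at all protein-coding genes. In genes over 100 kb the shares were 58.3% (36.6 to 77.9) at channel genes and 50.6% at all.

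CKO had more peaks than Ctrl at channel genes in H3K9me2 and in input alike. Input-free H3K9me2 gave 41 CKO and 7 Ctrl peaks, a ratio of 5.86 (2.60 to 15.5), beside 3.64 for the whole input-free lists. Input gave 50 CKO peaks against 10 and 4 in the Ctrl inputs, ratios of 5 (2.51 to 11.1) and 12.5 (4.59 to 47.7), beside 3.56 and 8.37 for the whole lists. The intervals at channel genes hold the ratio of the whole list in each of these 3 cases. With the input-free CKO list cut by p-value to the length of the Ctrl list, channel genes with a peak numbered 5 in CKO and 7 in Ctrl. The share of all protein-coding genes was not computed for that cut, so whether channel genes differ from others there is not known. At q of 1e-05 or less in the lists of full length, channel genes with an input-free peak numbered 9 in CKO (9.78%) and 0 in Ctrl, beside 3.76% and 0.203% of all protein-coding genes.

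A total of 15 channel genes had no peak in any list (16.3%, 9.42 to 25.5), beside 28.0% of all protein-coding genes, and 26 had H3K4me3 alone (28.3%, 19.4 to 38.6), beside 26.6%. Channel genes are longer than genes in general, with medians of 34.5 and 17.5 kb. Above 100 kb, 0 of 23 channel genes (0%, 0 to 14.8) had no peak in any list, beside 3.42% of all such genes. Shares in the shorter classes were not computed. The 15 were Kcna10, Kcne1, Kcne2, Kcne4, Kcnj13, Kcnj15, Kcnj16, Kcnk7, Kcnk15, Kcnk16, Kcnk18, Kcnmb1, Kcnmb3, Kcnn4 and Kcnrg, among them 6 auxiliary subunits and no muscle-fibre or neuronal channel of the lists used. Kcnq1, the cardiac slow-current channel, had 3 H3K4me3 peaks, and the one in its body, of fold 7.30, lies within the long non-coding RNA Kcnq1ot1, so a peak there cannot be assigned to either gene.

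Partners of these channels without a Kcn symbol gave like counts. H3K4me3 stood at 10 of 13 of them, and at 7 of 9 other genes of muscle membrane excitability, where it was absent at Clcn1, the chloride channel of fibres. Input-free CKO peaks numbered 7 at Dpp6 and 4 at Dpp10, which encode partners of A-type channels. In Ctrl, Dpp6 had 0 and Dpp10 had 1.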

How the data were processed

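Peak lists of 6 CUT&RUN libraries of gastrocnemius muscle were used. The submitters' processing notes name Bowtie2, MACS2 and the build mm10. Their versions, and the use of an input as control, are not given in the sources here. Per peak, the authors deposited a score and the summit offset in bp. The deposited fold is a ratio of fragments at the summit to local background, as the authors' caller gave it. Deposited significance is on the −log10 scale, for p-value and q-value. The lists were called per library, and the lowest −log10 q in them was 1.30 to 1.34.

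Genes came from RefSeq for GRCm38.p6, the assembly of mm10, and promoter windows (300 bases) from the RefSeq table of the same build, which holds 68 of the 92 genes. A gene had a peak where at least 1 bp of it lay in the gene or within 2 kb. A promoter window was covered where at least 1 bp of it lay under a peak. Summit fragments were solved from fold and p-value, matching within 0.1% for 98.59% to 99.96% of the peaks of a list. Intervals are exact (Clopper-Pearson or Poisson, 95%) and cover counting error alone, since genes and peaks are not replicate mice. A count of 0 was given the limit of 3 counts. Overlap, input removal and fragment counts were tested on simulated data.

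The members and lists were chosen with earlier results of these data known, and no list was tested. Named genes were the muscle-fibre list, genes in the input-free Ctrl list, in both H3K9me2 lists or in a Ctrl input, the 15 highest by input-free CKO fold, the 5 with most such peaks, the 15 highest and 10 widest by H3K4me3 and the 10 highest by CKO input, 51 genes in all, some of which are not reported here. Others were named after their values were seen. Alternatives were windows of 1 and 5 kb or 2 kb around the gene start, stricter fold or q, 50% or summit overlap, other input removal and lists of equal length. Scripts ran under Python 3.11.15 with pandas 2.3.3, numpy 2.4.6, matplotlib 3.10.9 and scipy 1.17.1.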

Additional observations from a re-analysis of the deposited data

How the results depend on the processing

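Across the 10 results recomputed, 70 of 92 alternative values stayed within 1.5 times the reported count, or within the counting interval of a difference, and none took the opposite sign. The interval was wide for the differences. The input-free H3K9me2 difference of -21.0 percentage points still counted as staying at 0, around the gene start alone. The count of 70 therefore says little about how steady the differences are. No paired analysis was possible because each mark had 1 library per genotype and the 2 Ctrl inputs have a single CKO input beside them. The gene start alone could be read only at the 68 genes with a listed promoter window, among them 8 of 9 muscle-fibre and 17 of 28 neuronal genes. Genes without a window counted as having no peak in this setting. Within 2 kb of the listed starts, H3K4me3 stood at 41 genes, and H3K9me2 at 3 in CKO and 1 in Ctrl. Input-free H3K9me2 stood there at 1 and 0, and input at 18 in CKO and 6 and 2 in Ctrl. These counts take every listed start of a gene, whereas the 37 genes given above were read at 1 start each. The share of all protein-coding genes was not computed for these counts. At or above the median fold of its list, H3K4me3 stood at 17 genes (18.5%), beside 41.5% of all protein-coding genes. Input-free H3K9me2 in CKO then stood at 11 (12.0%), beside 4.93% of all, and input at 19 in CKO and 6 and 2 in Ctrl. At q of 1e-05 or less, H3K9me2 stood at 15 genes in CKO and 0 in Ctrl, input-free H3K9me2 at 9 and 0, and input at 3 in CKO and 3 and 0 in Ctrl. At that q, 3.76% of all protein-coding genes kept an input-free CKO peak and 0.203% an input-free Ctrl peak, beside 9.78% of channel genes in CKO. For whole-list H3K9me2 and for input, the share of all genes was not computed at the stricter fold or q. With CKO lists cut by p-value to the number of Ctrl peaks, H3K9me2 stood at 8 genes in CKO and 9 in Ctrl, and input-free H3K9me2 at 5 in CKO and 7 in Ctrl. Counts of channel genes were thus not higher in CKO at equal list length. The share of all protein-coding genes was not computed at that length, so this cannot be called a trait of channel genes. Why these values moved was not tested, beyond the smaller window, list or number of readable genes that each setting uses. Leaving out either Ctrl input gave 20 genes for input-free CKO H3K9me2 and 7 to 8 for Ctrl, and a difference between muscle-fibre and neuronal channels of -21.0 percentage points in each case. That difference ran from -21.0 to 0 over its alternatives, and the one for H3K4me3 from 5.56 with input-overlapping peaks left out to 35.7 at the stricter q. Leaving out input-overlapping H3K4me3 peaks (44 genes), H3K4me3 peaks wholly outside the gene (62 genes) and genes over 100 kb were settings chosen after seeing the data. A summit of 5 to 19 fragments limits what an H3K9me2 peak at a single gene can show, and a peak below that depth would not be listed.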
